A study of Mus musculus with 16 samples.

Results

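Open chromatin regions that lay in the second or a later intron of a gene were compared between monocytes with high and with low surface Nrp1. Of 40796 regions in the authors' deposited table of ATAC-seq regions, 6434 (15.8%) carried an intron annotation other than the first intron, and these are the later-intron regions described here. The rule that selects them uses the annotation alone and no accessibility value, though it was chosen with earlier results of these data known. They lay in 3277 host genes, of which 3272 have a name in the gene tables used. The cells were sorted from spleens of wild type C57BL/6 or C57BL/6J mice aged 7 days into an Nrp1 high and an Nrp1 low fraction, and the labels call them both monocytes and myeloid derived suppressor cells. ATAC-seq had 5 Nrp1 high and 5 Nrp1 low libraries of 50000 cells each, and RNA-seq had 3 Nrp1 high and 3 Nrp1 low libraries of 80000 cells each. Nrp1 (neuropilin-1) is a co-receptor for semaphorins and vascular endothelial growth factor, and the comparison asks how cells that carry much of it differ from cells that carry little. Which markers besides Nrp1 defined the sort is not stated. RNA is described as pooled and no label ties a library to an animal, so each p-value speaks of differences among libraries, whose spread may be technical.

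In ATAC-seq a transposase inserts adapters where DNA is free of nucleosomes, and reads pile up at such open sites. Introns hold many enhancers, stretches that bind transcription factors and act on the promoter of the host gene or of another gene at a distance. In myeloid cells such enhancers are opened by lineage factors of the PU.1, C/EBP and RUNX families, and their accessibility often follows the cell's stage more closely than promoter accessibility does. An intron annotation says where a region lies, not which gene it acts on.

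RNA values give the setting of the comparison. Total counts were 28440098 to 31428419 in the Nrp1 high and 23395363 to 35127433 in the Nrp1 low RNA libraries. Mitochondrial genes took 3.01, 1.29 and 2.37% of counts in Nrp1 high, against 0.784, 1.57 and 1.11% in Nrp1 low, with the lowest share in Nrp1 low replicate 1. Monocyte markers were present in both fractions: Ly6c2 averaged 2018 ± 252 CPM (counts scaled to a common library size) in Nrp1 high monocytes, against 2069 ± 503 CPM in Nrp1 low monocytes (SD, n = 3 each), and Csf1r averaged 482 ± 16.3 against 420.1 ± 46.6 CPM. Ccr2, a chemokine receptor of classical monocytes, averaged 810 ± 122 against 463 ± 143 CPM without overlap, and Lyz2 (lysozyme) 24566.5 ± 5225 against 36827 ± 8433 CPM with overlap. The 20 neutrophil granule genes summed to 30289.9 to 40190.5 CPM in Nrp1 high libraries, against 73837 to 116623 CPM in Nrp1 low libraries, and 13 of them were called lower. Of 17 genes of granule-forming progenitors, 8 were called lower (3159 to 5462 against 12860.2 to 19879.6 CPM summed). Of 16 platelet genes tested, 3 were called lower (24.1 to 29.8 against 87.1 to 101.4 CPM summed over the list). Over all 15541 genes tested 0.676% were called lower. Ly6g, the gene of the neutrophil surface marker, stood at 2.41, 6.39 and 3.99 CPM in Nrp1 high libraries, against 8.23, 7.43 and 9.91 CPM in Nrp1 low libraries, without overlap. Counts of called marker genes depended on single libraries: for these 3 lists edgeR called 0 without Nrp1 high replicate 3 (0 of all genes, 909 at an unadjusted p under 0.05), 6, 3 and 1 without Nrp1 high replicate 1, and 8, 3 and 0 without Nrp1 low replicate 3, while all 20 neutrophil granule genes lay below 0 in each of these fits. Sums also lay lower in Nrp1 high without overlap for nonclassical monocyte genes (1203 to 1309 against 1709 to 1921 CPM), macrophage genes (1495 to 1613 against 1695 to 1883 CPM), genes of natural killer and innate lymphoid cells (66.0 to 103.0 against 180.1 to 239.1 CPM) and basophil and mast cell genes (51.8 to 88.3 against 117.8 to 161.6 CPM). Of these 4 lists, 1 of 18, 0 of 22, 1 of 14 and 1 of 12 genes tested were called lower. Sums of B cell (797 to 1007 against 868 to 1171 CPM) and T cell genes (69.1 to 85.1 against 71.9 to 97.4 CPM) overlapped between fractions, as did those of classical monocyte, erythroid, dendritic cell and endothelial genes. In bulk samples, fewer cells of a type and less RNA per cell cannot be told apart, and the part of these cell types in the results below was not tested. Nrp1 low replicate 1 stood apart in RNA: it held the lowest value of the 6 libraries for 47.1% of the 2265 host genes tested, against 34.2% of all genes tested.

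No sequence of the regions themselves was at hand apart from stretches that RefSeq (GRCm38.p6) gives around gene starts, 250 bases before to 50 bases after each. Of 32851 such windows, 36 touched 31 later-intron regions, and 5 of these regions were called between the fractions, 2 higher and 3 lower. Of all later-intron regions 9.08% were called (3.17% higher, 5.91% lower), and 31 regions are too few to read a difference from that share. They are shown because they are the called later-intron regions whose bases could be read, and each overlaps the annotated start of a predicted RNA gene inside the host intron. The part shared by window and region is printed 5′ to 3′ on the strand of the predicted gene, with capitals for matches to the motifs listed after them.
Umad1, intron 2 of 4, higher, chr6:8345527-8345791, minus strand: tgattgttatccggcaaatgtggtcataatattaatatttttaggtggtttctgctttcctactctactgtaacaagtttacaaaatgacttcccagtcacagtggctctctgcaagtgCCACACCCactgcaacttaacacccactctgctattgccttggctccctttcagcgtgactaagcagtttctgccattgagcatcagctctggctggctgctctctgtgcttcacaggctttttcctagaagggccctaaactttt
Rfx2, intron 5 of 16, higher, chr17:56793741-56793911, plus strand: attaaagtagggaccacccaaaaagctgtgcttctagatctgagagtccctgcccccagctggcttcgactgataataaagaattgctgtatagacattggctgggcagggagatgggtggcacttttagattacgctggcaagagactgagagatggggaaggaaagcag
Zfp536, intron 3 of 3, lower, chr7:37439218-37439445, plus strand: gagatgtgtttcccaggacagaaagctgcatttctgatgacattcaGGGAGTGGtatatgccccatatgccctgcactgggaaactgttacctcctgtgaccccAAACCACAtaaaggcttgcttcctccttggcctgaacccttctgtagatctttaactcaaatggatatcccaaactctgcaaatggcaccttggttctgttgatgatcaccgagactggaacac
Tbc1d5, intron 17 of 21, lower, chr17:50790599-50790898, plus strand: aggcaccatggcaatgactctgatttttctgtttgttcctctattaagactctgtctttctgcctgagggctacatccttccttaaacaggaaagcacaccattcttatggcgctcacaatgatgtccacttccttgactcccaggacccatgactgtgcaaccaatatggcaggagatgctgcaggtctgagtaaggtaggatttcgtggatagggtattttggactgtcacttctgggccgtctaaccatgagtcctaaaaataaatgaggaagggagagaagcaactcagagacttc
Rnf216, intron 13 of 16, lower, chr5:143038874-143039040, plus strand: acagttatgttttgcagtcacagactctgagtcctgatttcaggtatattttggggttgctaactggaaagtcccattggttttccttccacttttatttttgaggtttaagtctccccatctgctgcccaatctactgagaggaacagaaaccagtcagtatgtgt

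The Umad1 and Zfp536 stretches each hold a Kruppel-like factor motif (GGGNGTGG, both strands), which occurs in 17.6% of all 300-base windows. The Zfp536 stretch also holds a RUNX motif (TGTGGTTN, both strands), found in 5.24% of windows. The other 3 stretches hold none of the motifs searched, which were also those of PU.1 (GAGGAAGT), other ETS factors (CCGGAAGT), C/EBP (TTGCNNAA), AP-1 (TGANTCA), IRF (GAAANNGAA), CTCF (AGGGGGCG), NR4A (AAAGGTCA), GFI1 (AATCANNGC) and GATA factors (AGATAA), each on both strands. Their shares of all windows ran from 1.51% (NR4A) to 11.2% (GATA). A match is a match of letters and no evidence of binding, and none of the 2743 miRNA entries of the reference lay on a later-intron region.

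In the authors' deposited table, the region of Zfp536, a zinc finger gene, had a log2 fold of −1.60 (FDR 5.7e-05), that of Tbc1d5, a regulator of endosomal Rab proteins, −1.25 (FDR 0.0306), and that of Rnf216, a ubiquitin ligase gene, −1.13 (FDR 0.00841). The region of Rfx2, a winged-helix transcription factor, stood at 0.92 (FDR 0.0176) and that of Umad1 at 0.76 (FDR 0.0210) in the authors' deposited table. None of the 5 sequences reaches past 300 bases, so motifs in the rest of each region were not seen.

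Called later-intron regions were more often lower than higher in Nrp1 high monocytes (65.1% of them lower), as were the called regions of the whole table (66.1%). By the authors' deposited FDR under 0.05, 584 of 6434 (9.08%) were called, 204 higher (3.17%) and 380 lower (5.91%). Over all 40796 regions 7.55% were called, 2.56% higher and 4.99% lower. Their called share was close to those of first introns (9.52%) and intergenic regions (9.25%) and above that of promoters within 1 kb of a start (5.24%), which make up 15510 of all regions. The log2 fold, Nrp1 high against Nrp1 low, had a median of −0.13 over the later-intron regions of the authors' deposited table, −0.16 over first introns, −0.05 over promoters within 1 kb and −0.09 over all regions. These shares are counts of the authors' calls, and the differences between classes were not tested. No value per ATAC library was used here, so no later-intron region has a replicate check. That a positive fold means higher in Nrp1 high is read from the comparison's name in the labels, since no column states it, and no header states the log2 scale. Every statement below on RNA running with or opposite to a region rests on that reading. A reversed sign would turn each of them around.

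**Figure D1:**
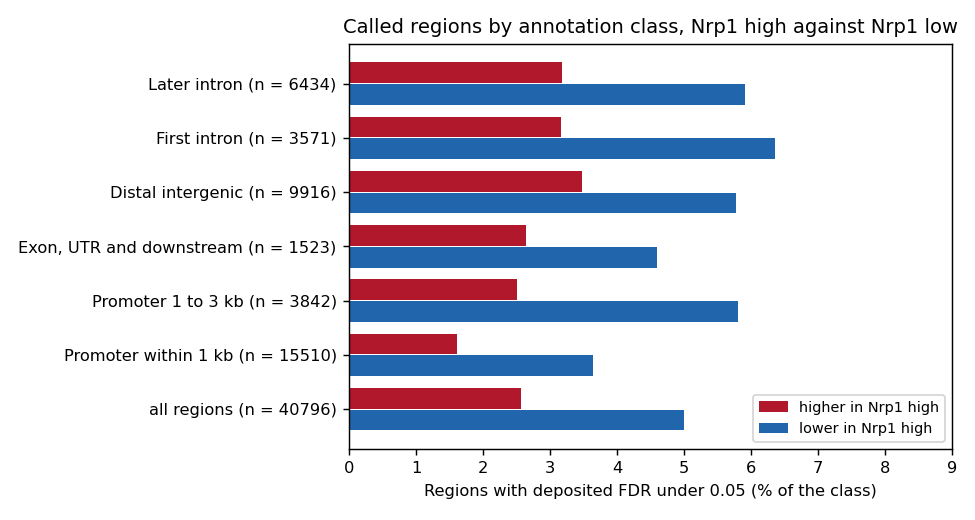
Share of regions with a deposited FDR under 0.05 in each annotation class (x axis, percent of the class), with red bars for regions higher and blue bars for regions lower in Nrp1 high. Later introns (3.17% higher, 5.91% lower) sit beside first introns and intergenic regions and above promoters within 1 kb.

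Higher regions were fewer, and their median fold was larger. In the authors' deposited table, the 204 higher regions had a median log2 fold of 1.02 (quartiles 0.75 and 1.48), and 109 of them (53.4%) reached 1. The 380 lower regions had a median of −0.86 (quartiles −1.10 and −0.69) in the authors' deposited table, and 125 (32.9%) reached −1. The depth behind each fold is unknown. Higher regions lay a median of 15569.5 bases from the nearest start, and lower regions 13946.5 bases. The host gene owned the nearest start for 112 of the 204 higher regions (54.9%) and for 243 of the 380 lower regions (63.9%), against 59.9% of all later-intron regions.

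**Figure D2:**
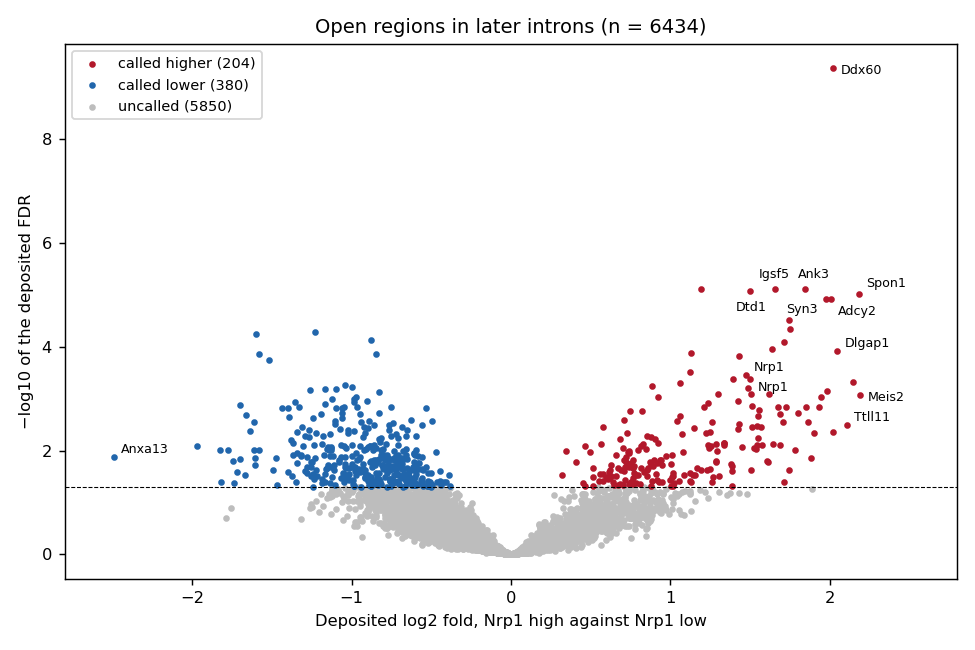
Deposited log2 fold (x axis, Nrp1 high against Nrp1 low) and −log10 of the deposited FDR (y axis) of each of the 6434 later-intron regions, with the dashed line at an FDR of 0.05. The 204 red points (higher, median 1.02) have a median further from 0 than that of the 380 blue points (lower, median −0.86), though Anxa13 lies furthest, and Ddx60 has the lowest FDR.

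The regions with the largest positive folds often lay in genes with little RNA in these libraries. The plot of fold against FDR shows them at the right. The largest log2 fold in the authors' deposited table was 2.19 (FDR 0.000861), in intron 8 of 11 of Meis2, a homeobox transcription factor (chr2:115984740-115985139). Intron 3 of 15 of Spon1, the gene of the matrix protein F-spondin, followed with 2.18 (FDR 9.59e-06; chr7:113855845-113856244) in the authors' deposited table. Next in the authors' deposited table came Pcnt, the centrosome scaffold pericentrin (2.15), Ttll11, a tubulin polyglutamylase (2.10), and Dlgap1, a scaffold of synapses (2.05). Ddx60, an interferon-induced helicase, had a region in intron 31 of 38 (chr8:62014421-62014820) with a fold of 2.02 and the lowest FDR of all later-intron regions in the authors' deposited table, 4.39e-10. Adk, the gene of adenosine kinase, had 2.02 and Adcy2, an adenylate cyclase, 2.01 in the authors' deposited table. The regions of lowest FDR also included Ank3 (ankyrin-G, 1.85), Igsf5 (an immunoglobulin family adhesion protein, 1.65), Dtd1 (a deacylase of mischarged tRNA, 1.50) and Syn3 (a synapsin, 1.98) in the authors' deposited table. All coordinates are on GRCm38 as deposited.

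The largest negative folds also often lay in genes with little RNA. Intron 9 of 9 of Anxa13, an annexin gene, held the lowest log2 fold in the authors' deposited table, −2.49 (FDR 0.0134; chr15:58344369-58344768). It was followed in the authors' deposited table by Slc26a4, the anion exchanger pendrin (−1.82), Neb, the muscle protein nebulin (−1.82), Myo5c, an unconventional myosin (−1.77), and Rasgrf1, a Ras exchange factor (−1.75). Cmtm8 (a MARVEL-domain protein, −1.74), Ssbp3 (a DNA-binding cofactor, −1.72) and Auts2 (a gene of neural development, −1.70) complete the 8 largest in the authors' deposited table, leaving out hosts that are predicted gene models.

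RNA of these hosts was often near the limit of detection. Of the 8 hosts with the largest positive fold, 5 had enough RNA to be tested and 7 had a row in the RNA table, with a median of 0.966 CPM. Of the 8 with the largest negative fold, 3 were tested and 7 had a row, with a median of 0.255 CPM. Of all hosts 69.1% were tested, and those with a row had a median of 10.4 CPM. Pcnt (49.5 CPM), Adk (78.1 CPM) and Ssbp3 (51.8 CPM) had far more RNA than the medians of these hosts. Myo5c and Anxa13 had RNA in only 1 Nrp1 high library each, at 0.0964 CPM. Ddx60 RNA stood at 4.27, 2.94 and 1.39 CPM in Nrp1 high against 4.93, 10.02 and 6.20 CPM in Nrp1 low libraries. The groups did not overlap and ran opposite to its region, and the log2 difference of −1.30 ± 0.49 (SE) missed the threshold of edgeR's quasi-likelihood test (adjusted p = 0.426). Pcnt RNA stood at 66.3, 60.6 and 59.8 CPM in Nrp1 high against 14.1, 48.5 and 47.8 CPM in Nrp1 low (log2 difference 0.76 ± 0.42 SE, edgeR adjusted p = 0.465), with Nrp1 low replicate 1 far below the rest. Spon1 RNA, on the side of its region, stood at 0.836, 0.856 and 0.842 CPM in Nrp1 high against 0, 0 and 0.458 CPM in Nrp1 low (edgeR adjusted p = 0.489). Cmtm8 has the start of Cmtm7 nearest to its region, and Cmtm7 RNA stood at 293.4, 429.9 and 334.4 CPM in Nrp1 high against 624.5, 448.5 and 634.4 CPM in Nrp1 low (edgeR adjusted p = 0.374).

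Nrp1 itself carried 5 later-intron regions, and they did not move together. In the authors' deposited table the region in intron 3 of 3 of a short transcript (chr8:128419897-128420296, 60.5 kb from the start) had a log2 fold of 1.47 (FDR 0.000351). Its neighbour in intron 4 of 16 (chr8:128431055-128431454) had 1.50 (FDR 0.000833) in the authors' deposited table. Intron 6 of 16 held a region at 0.59 that was not called (FDR 0.103), and intron 12 of 16 one called lower at −0.39 (FDR 0.0296), 132 kb from the start, in the authors' deposited table. The fifth, in intron 2 of 3 of the short transcript, stood at −0.36 and was not called (FDR 0.536) in the authors' deposited table. Nrp1 RNA was 97.3, 89.8 and 111.4 CPM in Nrp1 high against 20.1, 57.8 and 41.5 CPM in Nrp1 low. All high libraries lay above all low ones, and the log2 difference of 1.32 ± 0.36 (SE) missed edgeR's threshold (adjusted p = 0.259) and passed with DESeq2 (adjusted p = 0.0218). Without Nrp1 low replicate 1 it was 1.0 (edgeR adjusted p = 0.126). Of the other genes the study's design text names, Mapk14, the gene of p38 alpha, had 1 later-intron region (−0.46, FDR 0.332) and Mtor 1 (−0.37, FDR 0.486) in the authors' deposited table, neither called. Sema4a, Klf4 and Nos2 had none.

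The called regions of semaphorin pathway genes lay in Nrp1, Nrp2 and Sema6d. The list of semaphorins, plexins, neuropilins and VEGF genes had 40 later-intron regions in 11 of its 26 genes, 2 called higher (5.0%, against 3.17% of all later-intron regions), both in Nrp1, and 5 lower (12.5%, against 5.91%), 1 of them in Nrp1, with a median log2 fold of −0.31. Nrp2, the gene of neuropilin-2, had 2 lower regions at introns 10 and 11 of 15, at −1.39 (FDR 0.00230) and −1.27 (FDR 0.00560) in the authors' deposited table. Sema6d, a transmembrane semaphorin, had 2 as well, at −0.98 (FDR 0.00103) and −0.84 (FDR 0.0166) in the authors' deposited table. Nrp2 RNA was low, with 1.67, 2.81 and 1.36 CPM in Nrp1 high against 0, 0.209 and 0.500 CPM in Nrp1 low. It did not pass edgeR's test (adjusted p = 0.420).

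Genes with several called regions differed in whether these shared a direction. Called regions lay in 497 hosts: 167 had called regions that were all higher, 312 all lower, and 18 had both. Of the 73 hosts with at least 2 called regions, 14 were all higher, 41 all lower and 18 mixed. Counting uncalled regions too, 1933 hosts (59.0%) had a single later-intron region, 238 had at least 5 and 26 at least 10. Pde4d, a cyclic AMP phosphodiesterase gene, had the most with 30, of which 1 was called higher and 1 lower.

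Kcnh7, a voltage-gated potassium channel gene, had 3 later-intron regions and all were called higher, at 1.12 (FDR 0.000306) in intron 9 and at 1.29 (FDR 0.00737) and 1.00 (FDR 0.0375) in intron 14 of the authors' deposited table. Adcy2 had 3 of 4 called higher, all in intron 2, at 1.23, 0.64 and 2.01 in the authors' deposited table, with the fourth at −0.04. Magi1, a scaffold of cell junctions, had 2 of 2 called higher, at 1.28 and 1.75 in the authors' deposited table. Slco4c1, an organic anion transporter, had 2 of 2, at 1.06 and 0.58 in the authors' deposited table.

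Itpr1 was split along its length. This gene encodes an IP3 receptor, a channel that releases calcium from the endoplasmic reticulum, and had 15 later-intron regions. In the authors' deposited table, 2 regions in intron 4 of 61 were called lower (−0.78, FDR 0.00748, and −0.44, FDR 0.0457), and 3 in introns 44 and 46 higher (1.19, FDR 0.0237; 1.05, FDR 0.0379; 1.71, FDR 0.0400). The 6 regions in introns 2 and 4 were all below 0, from −0.78 to −0.29, in the authors' deposited table. Itpr1 RNA stood at 62.4, 65.1 and 72.3 CPM in Nrp1 high against 12.02, 46.8 and 33.8 CPM in Nrp1 low (log2 difference 1.11 ± 0.43 SE, edgeR adjusted p = 0.431). The groups did not overlap, and Nrp1 low replicate 1 held the lowest value.

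Among hosts with the most lower regions, Bach2, a transcriptional repressor of lymphocytes, had 6 later-intron regions, all below 0, with 3 called lower at −0.98 (FDR 0.0225), −0.87 (FDR 0.0458) and −0.86 (FDR 0.00324) in the authors' deposited table. Snx29, a sorting nexin gene, had 3 of 11 called lower, at −0.74, −0.87 and −1.13 in the authors' deposited table. Wnk2, a kinase gene, had 3 of 4 lower, Celf2, an RNA-binding splicing regulator, 3 of 6, Ubac2, an endoplasmic reticulum protein gene, 3 of 9, and Itpr2, a second IP3 receptor, 3 of 13. None of these 6 hosts had a region called higher.

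None of these 6 hosts passed the test in RNA. Celf2 RNA was 263.7, 191.8 and 258.3 CPM in Nrp1 high against 116.9, 234.7 and 169.4 CPM in Nrp1 low (edgeR adjusted p = 0.486). Bach2 RNA was 8.32, 4.95 and 9.14 CPM in Nrp1 high against 0.477, 4.47 and 3.66 CPM in Nrp1 low (log2 difference 1.39 ± 0.71 SE, edgeR adjusted p = 0.454), so the groups did not overlap and ran opposite to the regions. Pax5, a B cell transcription factor that is not a host here, ran from 6.39 to 11.96 CPM in Nrp1 high and from 0.731 to 8.02 CPM in Nrp1 low libraries.

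**Figure D3:**
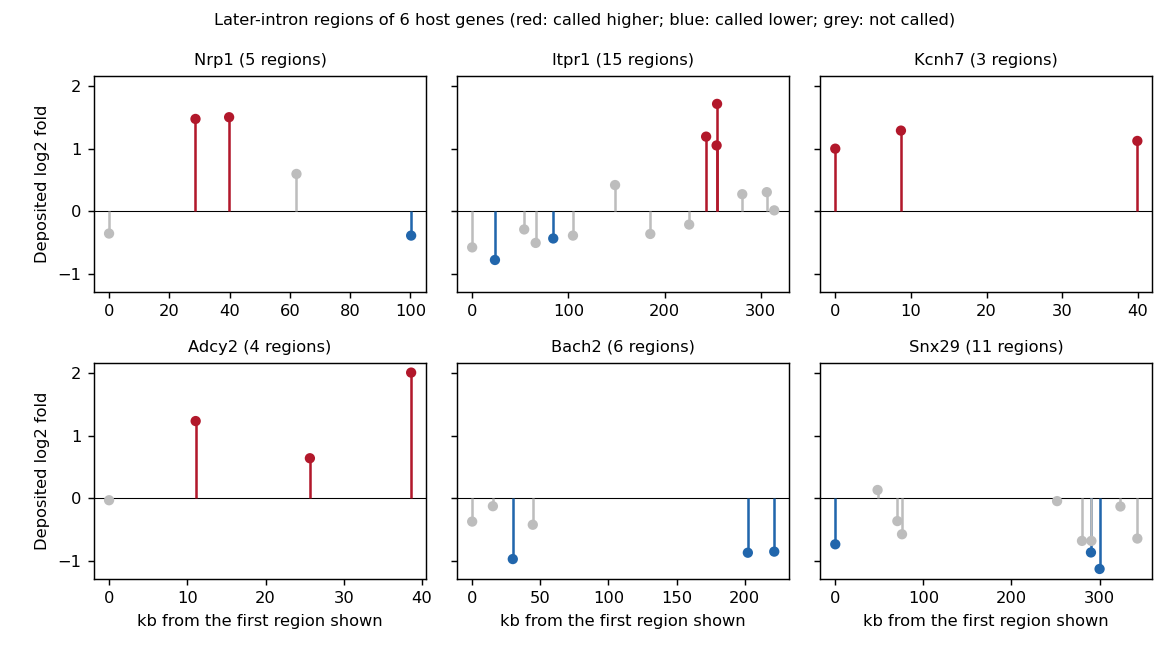
Deposited log2 fold (y axis) of every later-intron region of 6 host genes against its distance in kb from the first region shown (x axis), with called regions in red (higher) or blue (lower). Both Nrp1 regions called higher, at 1.47 and 1.50, sit side by side, Itpr1 has lower regions at one end and higher ones further on, and the Bach2 regions are all below 0.

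Folds of neighbouring regions were weakly correlated, and the differences between distances were not tested. Between a later-intron region and the next one of the same host, the deposited folds correlated at Pearson's r = 0.179 and Spearman's rho = 0.165 over 3157 pairs. The values were r = 0.262 and rho = 0.247 over the 747 pairs at most 5 kb apart, and r = 0.105 and rho = 0.101 over the 516 pairs over 50 kb apart. These are correlations across regions of the same libraries, which are not independent replicates.

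Called shares varied modestly with position in the gene, and past 50 kb slightly more regions were called higher than lower. The plot by intron number and distance shows called shares from 7.29% in introns 11 to 20 to 11.7% in introns 21 to 137, with 11.1% in intron 3 and 8.53% in intron 2, which holds 2029 of the regions. By distance to the nearest start the called share was 7.57% from 3 to 5 kb and 10.7% from 20 to 50 kb. In these 4 bins up to 50 kb, 66.2 to 69.1% of the called regions were lower. Past 50 kb, 33 of 584 regions were called higher (5.65%) and 25 lower (4.28%). Meis2, Spon1, Adcy2, Klf12, Sox6 and both higher Nrp1 regions lie in that last bin, as do lower regions of Map3k5, Cd44, Cdk6 and Nrp1. The difference between bins was not tested, and some called regions of a bin share a host, as those of Adcy2 and Nrp1 do.

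**Figure D4:**
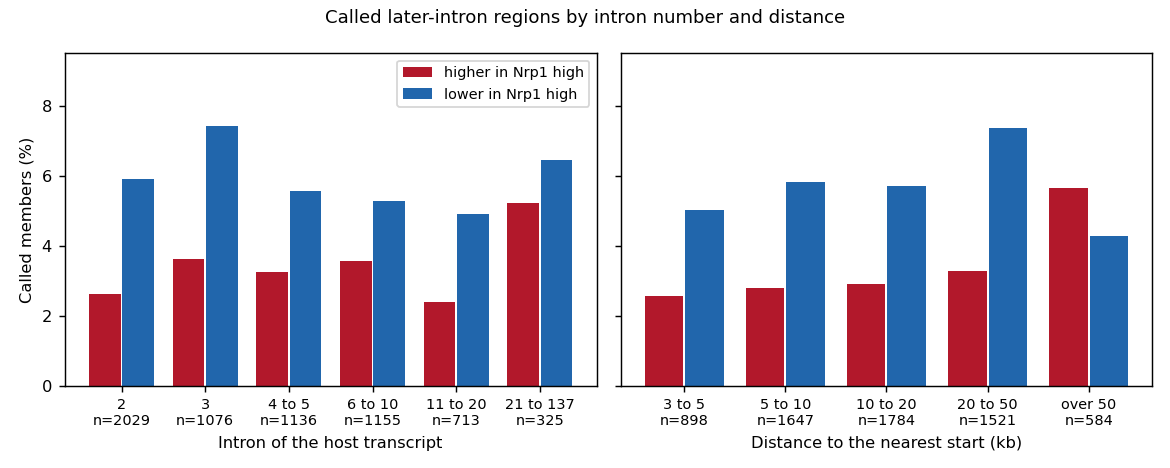
Percent of later-intron regions called higher (red) and lower (blue) in Nrp1 high (y axis) by intron number (left) and by distance to the nearest start in kb (right), with the number of regions under each bin. Blue bars exceed red ones in every bin except the one past 50 kb, where 5.65% were higher and 4.28% lower.

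Called regions of the listed genes were mostly lower, as were those of all later introns. The 31 lists together had 367 later-intron regions in 147 of their genes, 8 called higher (2.18%, against 3.17% of all later-intron regions) and 30 lower (8.17%, against 5.91%), 10.4% against 9.08% in either direction, with a median log2 fold of −0.21 against −0.13 over all later-intron regions. The 32 myeloid transcription factors had 43 regions in 14 genes, 2 higher (4.65%) and 4 lower (9.3%). In the authors' deposited table, Stat5b, a mediator of cytokine signals, had a higher region (1.39, FDR 0.0471), as did Erg, an ETS factor of progenitors and endothelium (0.67, FDR 0.0468). Lower in the authors' deposited table were regions in Runx1 (−0.68, FDR 0.00348), a master factor of blood formation, in Runx2 (−1.38, FDR 0.0315) and, in 2 places, in Tcf4 (−1.25, FDR 0.0169, and −0.90, FDR 0.0392), an E protein of plasmacytoid dendritic cells.

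Runx1 RNA stood at 100.2, 82.4 and 110.7 CPM in Nrp1 high against 45.9, 83.7 and 63.2 CPM in Nrp1 low (edgeR adjusted p = 0.441). Tcf4 RNA stood at 29.0, 43.4 and 38.8 CPM in Nrp1 high against 16.8, 26.5 and 21.3 CPM in Nrp1 low, without overlap and opposite to its regions (log2 difference 0.78 ± 0.27 SE, edgeR adjusted p = 0.385).

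Dock10, an activator of Cdc42 and Rac, held both kinds: intron 4 of 55 had 1.01 (FDR 0.0266) and intron 2 had −1.0 (FDR 0.000597) in the authors' deposited table. Elmo1, a partner of DOCK proteins, had −1.12 in intron 16 of 21 (FDR 0.0129) in the authors' deposited table. Dock10 RNA was 205.3, 168.2 and 209.9 CPM in Nrp1 high against 47.4, 143.0 and 96.7 CPM in Nrp1 low (log2 difference 1.02 ± 0.36 SE, edgeR adjusted p = 0.396), and Elmo1 RNA averaged 95.6 ± 12.99 against 95.4 ± 9.72 CPM (SD, n = 3 each).

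Several other lists had 1 or 2 called regions each, too few to read a difference from all later-intron regions (9.08% called, 3.17% higher and 5.91% lower). In the authors' deposited table, Cd44, the hyaluronan receptor, had −0.86 (FDR 0.0155) in its last intron, and Itga6, the integrin alpha 6 chain, −0.56 (FDR 0.0433), the 2 called of 21 regions of chemokine receptor and integrin genes. Of the genes of immunosuppressive molecules, with 2 of 8 regions called, Pdcd1lg2, which encodes PD-L2, had −0.65 (FDR 0.0148) and Havcr2, which encodes Tim-3, −0.41 (FDR 0.0399) in the authors' deposited table. Cdk6, a kinase of the G1 phase, had 2 lower regions (−1.22 and −0.54) of 14 in its cell cycle list, and Tbxas1, thromboxane synthase, 2 (−0.75 and −0.65) of 13 among lipid mediator enzymes in the authors' deposited table. Map3k5, a kinase upstream of p38, had −0.87 (FDR 0.0211) in the authors' deposited table, the 1 called of 17 regions of p38 pathway genes. Higher regions in the authors' deposited table were those of Klf12, a Kruppel-like factor (1.68, FDR 0.00147), and Gda, guanine deaminase (0.81, FDR 0.0433), 1 of 3 and 1 of 4 regions of the Kruppel-like factor and classical monocyte lists. Tbxas1 RNA ran with its regions without overlap (24.6, 21.5 and 20.6 CPM in Nrp1 high against 29.5, 25.5 and 30.4 CPM in Nrp1 low, edgeR adjusted p = 0.491). Havcr2 RNA did too (5.01, 6.91 and 5.64 against 7.09, 10.9 and 8.45 CPM, edgeR adjusted p = 0.462). Mean RNA of Cd44 (381.6 against 261.3 CPM) and Map3k5 (42.4 against 23.8 CPM) ran opposite to their regions, with overlap.

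Marker genes of other cell types held few later-intron regions each. Of 16 regions of plasmacytoid dendritic cell genes 3 were lower, in Tcf4 and Runx2, and of 8 regions of B cell genes 3, all in Bach2. Of 11 regions of erythroid genes 1 was higher, in Sox6, a factor of red cell development (1.55, FDR 0.00565, in the authors' deposited table), and of 12 regions of endothelial genes 1, in Erg. The 20 neutrophil granule genes had 1 later-intron region, in Padi4, and it was not called. Of 7 regions of platelet genes, 2 in Mrvi1 were lower (−0.82 and −0.81), and of 5 regions of T cell genes, 1 in Bcl11b (−1.34, FDR 0.0176) in the authors' deposited table. In all, 15 of the 31 lists had no called region, and these held 1 to 13 regions each, too few at a called share of 9.08% to read a difference from 0 calls. They include the lists on mTORC1 (12 regions), interferon (4), Fc and phagocytic receptors (10), pattern receptors (13) and NF-kB and interleukin-1 signalling (13).

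Few host genes were called in RNA, and the median RNA difference of hosts with lower regions was above 0. Of the 3277 hosts, 2265 (69.1%) had enough RNA to be tested, with a median of 18.9 CPM. By edgeR, 13 of them were called (0.574%), all lower in Nrp1 high, while over all 15541 genes tested 0.682% were called, 0.00643% higher and 0.676% lower. DESeq2 called 65 hosts, 18 of them higher, and 403 of all genes, 77 of them higher. With edgeR the number of hosts was 1, 2 and 0 without Nrp1 high replicate 1, 2 or 3 (28, 50 and 0 of all genes), and 1 without Nrp1 low replicate 3 (29 of all genes). The median log2 difference of hosts was 0.18, against 0.01 over all genes. It was 0.09 over the 104 tested hosts whose called regions were all higher, 0.34 over the 224 whose called regions were all lower and 0.16 over the 1923 with none called. Without Nrp1 low replicate 1 these medians were 0.08 over all tested hosts, −0.03 over those with higher regions and 0.16 over those with lower ones. Without Nrp1 low replicate 2 they were 0.31, 0.23 and 0.54. Host genes span a median of 75.4 kb in RefSeq, against 18.9 kb for all genes tested.

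The sign of a host's RNA difference was that of its called regions for 129 of 328 hosts (39.3%), and for 40.29% without Nrp1 low replicate 1. The RNA difference was above 0 for 57 of 104 hosts with higher regions (54.8%), 152 of 224 with lower regions (67.9%) and 58.8% of hosts with none called. Host genes share their 6 libraries, so no interval is given. The direction of the deposited fold is read from the comparison's name alone, and a reversed sign would exchange same and opposite here. Taking the gene of the nearest start in place of the host gave 120 of 279 (43.0%). The other annotation classes gave 38.3 to 55.6%, and no class was tested against another. Per tested host, the mean fold of later-intron regions and the RNA difference correlated at r = −0.0772 and rho = −0.106 across 2265 genes, which are not independent replicates.

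Genes called lower in RNA had more later-intron regions called higher than lower, with the sign of the fold read from the comparison's name. Taking host and nearest gene together, 17 genes called in RNA, all lower in Nrp1 high, had 29 later-intron regions. Of these, 6 were called higher (20.7%, against 3.17% of all later-intron regions) and 1 lower (3.45%, against 5.91%), and the median log2 fold was 0.02. The 7 called regions belong to 4 of the genes, and with so few no test was made. Itgb2l encodes an integrin beta chain of neutrophils, and its start is the nearest to the region in intron 7 of 8 of Igsf5 (chr16:96439855-96440254, 3.36 kb away), which had a log2 fold of 1.65 (FDR 7.67e-06) in the authors' deposited table. Itgb2l RNA was 14.8, 19.8 and 22.3 CPM in Nrp1 high against 209.7, 132.2 and 142.4 CPM in Nrp1 low, without overlap. It fell by 3.09 ± 0.27 (SE) on the log2 scale (edgeR adjusted p = 0.00416).

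Gca encodes grancalcin, a calcium-binding protein of neutrophils, and its start is nearest to both higher regions in intron 14 of Kcnh7 (20.2 and 28.9 kb away). Gca RNA was 14.9, 12.4 and 18.6 CPM in Nrp1 high against 97.7, 95.5 and 67.8 CPM in Nrp1 low, and fell by 2.51 ± 0.26 (SE) on the log2 scale (edgeR adjusted p = 0.00629). Kcnh7 RNA was low and overlapped (1.61, 2.17 and 1.98 CPM in Nrp1 high against 0.540, 6.51 and 2.41 CPM in Nrp1 low).

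Slco4c1 RNA was 3.25, 4.80 and 5.12 CPM in Nrp1 high against 15.7, 27.8 and 15.8 CPM in Nrp1 low, and fell by 2.17 ± 0.36 (SE) on the log2 scale (edgeR adjusted p = 0.0440), while both its intron 2 regions were called higher. The start nearest to both is that of the noncoding gene Panct2, with 0, 1.25 and 0.130 CPM in Nrp1 high against 2.32, 2.96 and 1.83 CPM in Nrp1 low. Hvcn1 encodes the voltage-gated proton channel that serves the oxidative burst. Its intron 3 held a region at −0.93 (FDR 0.0230) and beside it one at 1.02 (FDR 0.0474) in the authors' deposited table. Hvcn1 RNA was 34.7, 40.8 and 43.3 CPM in Nrp1 high against 182.5, 151.7 and 163.1 CPM in Nrp1 low, and fell by 2.07 ± 0.19 (SE) on the log2 scale (edgeR adjusted p = 0.00416).

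Without Nrp1 high replicate 3 the edgeR adjusted p of Itgb2l, Gca and Hvcn1 was 0.0644 each, without Nrp1 high replicate 1 that of Gca was 0.0598, and among these edgeR fits Slco4c1 was called only when Nrp1 low replicate 1 or no library was left out.

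The other called hosts had no called later-intron region. They include Padi4, a histone-modifying enzyme of neutrophils, Prom1, the gene of CD133, Hdc, histidine decarboxylase, Srgn, the granule proteoglycan serglycin, and C5ar1, the receptor of complement C5a. As given above, 13 of the 20 neutrophil granule genes fell in the same libraries, and their part in these RNA calls was not tested.

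**Figure D5:**
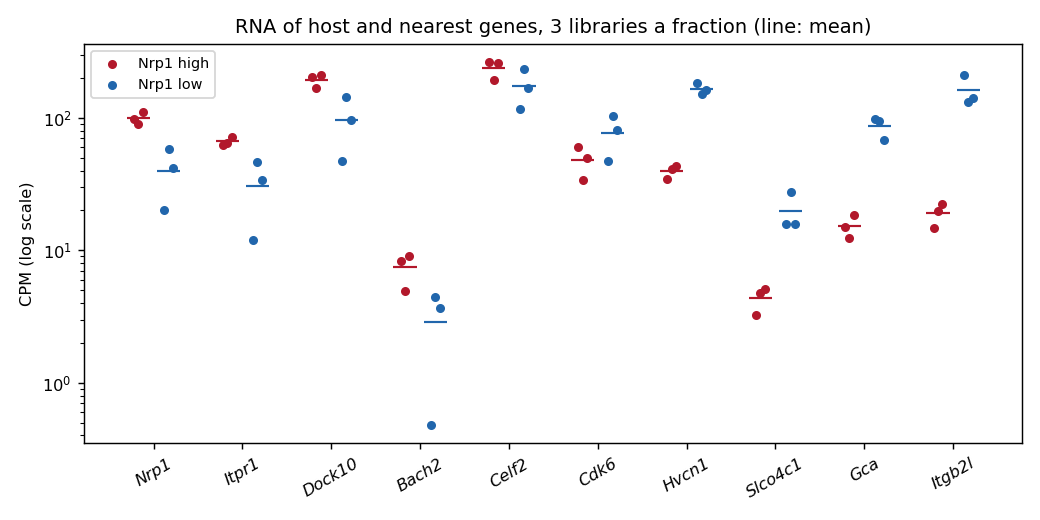
RNA level in CPM (y axis, log scale) of 10 host or nearest genes in the 3 Nrp1 high (red) and 3 Nrp1 low (blue) libraries, with a line at each mean. Nrp1, Itpr1, Dock10 and Bach2 lie higher in Nrp1 high with Nrp1 low replicate 1 lowest, while Hvcn1, Slco4c1, Gca and Itgb2l lie lower without overlap.

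Promoters of hosts with higher regions were called higher at a share close to that of uncalled regions. Of the 204 higher later-intron regions, 131 had a promoter region within 3 kb of a start of the same host, and among these regions 4 had a promoter called higher (3.05%) and 7 one called lower (5.34%). Of the 380 lower regions, 290 had one, and for 11 it was called higher (3.79%) and for 38 lower (13.1%). Of the 4374 uncalled regions with a promoter region, 9.85% had a promoter called lower and 3.09% one called higher, and these shares were not tested against each other. The shares count regions, so the promoters of a host with several later-intron regions enter them repeatedly. Per host, the mean fold of later-intron regions correlated with that of promoter regions at r = 0.0800 and rho = 0.0695 across 2275 genes, and with that of first-intron regions at r = 0.0869 and rho = 0.112 across 609 genes. These are descriptions across genes of the same libraries.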

How the data were processed

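ATAC-seq and RNA-seq were measured in the libraries described above. For ATAC-seq the authors deposited their own comparison, giving per region (GRCm38) a fold, taken as log2, with its p-value and FDR. Per the submitters' processing notes, the tools, given without versions or order, include MACS2, DiffBind, ChIPseeker, BWA, Trimmomatic, Picard, edgeR and DESeq2. Neither a shift of reads for the transposase nor the libraries that entered are stated, and the labels name a DESeq2 table while the table used is named for edgeR. The depth of these libraries is unknown. The library names of both fractions have one style for replicates 1 and 2 and another for replicates 3 to 5, and this split could not be examined.

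For RNA-seq the authors deposited estimated counts per gene, which are whole numbers, so rounding changed none. HISAT2 and StringTie are named in the submitters' processing notes. No source gives the strand setting, so values of overlapping or antisense genes are uncertain. Genes near or under 1 CPM rest on few counts, where counting error is large, and estimated counts come from coverage and PCR copies are not told apart.

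Later-intron regions were found from the annotation column, and the host gene is the gene that column names. Genes kept by filterByExpr were tested after TMM scaling (edgeR 4.0.16, R 4.3.3, robust quasi-likelihood fit with the fraction as its single term), with Benjamini-Hochberg adjustment over all genes and calls under 0.05. The procedure was tested on simulated data with log2 changes of 2 in either direction in well-covered genes. No simulated library was made to stand apart, so that test cannot speak to the dependence of calls on single libraries. The SE of a log2 difference was worked back from that test, as the absolute difference divided by the square root of its F statistic. CPM use TMM-scaled library sizes. Python 3.11.15 and scipy 1.17.1 did the rest. The regions, gene lists, tests and rule for named genes were chosen with earlier results of these data known. The rule takes called regions outside predicted gene models: the 8 largest folds per direction, the 6 of lowest FDR and up to 2 per direction of each list, the 6 hosts with most called regions per direction, and every region of the genes in the design text. The further lower regions of the Nrp2, Sema6d and Tcf4 genes, the sequences printed, Pax5 and the uncalled hosts called in RNA were chosen after their values were seen. Of the gene lists, 1 is not reported here. The planned sequences of the largest regions and motif shares over regions were not run, since no genome was used here. Alternatives were other FDR and fold thresholds, subsets of the regions, RLE and upper-quartile scaling, other filters, DESeq2 1.42.0, limma-voom (limma 3.58.1), leaving out each RNA library, the replicate number as a block, and the nearest gene in place of the host.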

Additional observations from a re-analysis of the deposited data

How the results depend on the processing

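Of the 584 called later-intron regions (204 higher, 380 lower), an FDR under 0.01 left 203 (92 higher, 111 lower) and under 0.1 gave 976 (318 higher, 658 lower). A fold of at least 1 on the log2 scale left 234 (109 higher, 125 lower), and regions over 10 kb from a start held 374 (135 higher, 239 lower), in both cases because fewer regions could count. Lower regions outnumbered higher ones in each of these. With the region of lowest FDR per host the median fold was −0.21, and under the other 3 subsets it lay between −0.1348 and −0.128. The number of hosts called in RNA, 13, was 65 with DESeq2 (18 higher), 0 with edgeR and the replicate number as a block (193 at an unadjusted p under 0.05), and 0 to 17 when 1 RNA library was left out: 1 without Nrp1 high replicate 1, 2 without Nrp1 high replicate 2, 0 without Nrp1 high replicate 3 (156 at an unadjusted p under 0.05), 17 without Nrp1 low replicate 1, 9 without Nrp1 low replicate 2 and 1 without Nrp1 low replicate 3. Why DESeq2 gave more was not tested, and fewer libraries leave fewer degrees of freedom. The Slco4c1 call had an adjusted p of 0.0149 to 0.225 with edgeR when 1 library was left out. The adjusted p of Hvcn1 was 0.00191 to 0.0644, of Gca 0.00247 to 0.0644 and of Itgb2l 0.00115 to 0.0644 in those fits. Libraries with the same number did not deviate together (correlations of −0.215, −0.215 and 0.0189). With deviations taken from means of 3 libraries, these values cannot exclude a pairing, and no label states one. The share of hosts whose RNA had the sign of their regions was 38.19 to 43.01% under 17 alternatives, 1 of them (signs taken relative to the median host) chosen after seeing the data. Depth limits the ATAC values in a way that cannot be stated, since it is unknown.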
